A study of Mus musculus with 12 samples.

Results

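The 10 genes described here encode enzymes of de novo nucleotide synthesis, the routes that build pyrimidine and purine nucleotides from amino acids, bicarbonate, phosphoribosyl pyrophosphate (PRPP) and one-carbon units. They were chosen by symbol: Cad, Dhodh, Umps and Ctps for pyrimidines, and Ppat, Gart, Pfas, Paics, Atic and Gmps for purines. All 10 were found among the 32699 gene symbols of the count file, and all 10 passed the low-count filter that left 13196 genes for testing. The RNA was that of naive mouse CD4+ T cells stimulated in culture through CD3 and CD28 with antibodies. Cells were wild type (WT) or labelled Keap-1 KO (Keap1 knockout, KKO), and they were collected after 24 h or 48 h of stimulation, with 3 libraries in each of the 4 groups. All groups received the same stimulation, and none was unstimulated, so levels in resting cells are not part of the comparison. Strain, age, the number of mice, and how and in which cells Keap1 was deleted are not given in the sources used here.

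Pyrimidine synthesis starts with Cad, a large protein that carries the first activities of the route and takes nitrogen from glutamine. Dhodh, an enzyme of the inner mitochondrial membrane, makes orotate, Umps turns orotate into UMP, and Ctps, a CTP synthase, adds a glutamine nitrogen to UTP to make CTP. Purine synthesis starts with Ppat, which commits PRPP to the route with a glutamine nitrogen. Gart, Pfas, Paics, the lyase Adsl and Atic then build the rings of IMP, and Gmps makes GMP from XMP with another glutamine nitrogen. T cells that leave rest raise these routes to supply RNA and DNA synthesis. Keap1 is a ubiquitin ligase adaptor that holds the transcription factor Nrf2 low, and the series title names Nrf2 with glucose and glutamine metabolism as its subject.

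Library totals ran from 17786533 to 32607685 expected counts. Keap1 itself was lower in every KKO library than in every WT library, by edgeR with log2 differences of -2.69 at 24 h (adjusted p = 6.3e-13) and -2.57 at 48 h (adjusted p = 1.22e-12). CD4 T cell markers (Cd3d, Cd3e, Cd3g, Cd4, Cd5, Cd28) summed to between 1670 and 2320 CPM (counts per M, mega, of the TMM-scaled library total) in the 12 libraries. At 24 h the sums did not overlap, at 2090 to 2110 CPM in KKO and 2240 to 2320 CPM in WT. Of these 6 markers edgeR and limma-voom called 0 at 24 h and DESeq2 called 2, with an unadjusted p under 0.05 by edgeR for 4. At 48 h all 3 tools called 0. Markers of other cells were far lower, but 3 of 5 B cell markers at 24 h and 4 of 5 at 48 h were higher in KKO, where the 5 summed to 21.6 ± 4.21 and 25.6 ± 5.84 CPM against 10.6 ± 1.66 and 12.3 ± 1.71 CPM in WT (SD, n = 3). At 48 h both CD8 markers were higher in KKO too, with sums of 13.1 ± 0.4 CPM against 9.13 ± 1.26 CPM in WT (SD, n = 3). Sums of 5 myeloid markers stayed between 9.66 and 14.3 CPM, and sums of 3 NK markers between 1.57 and 5.35 CPM. Of the NK markers Klrk1 was lower in KKO at 48 h by edgeR (log2 difference -0.81, adjusted p = 0.0215). Sex-linked transcripts differed between libraries of a group. At 48 h, WT replicates 1 and 2 held Xist and replicate 3 held Y-linked transcripts, while KKO replicate 2 held Xist, replicate 1 held Y-linked transcripts and replicate 3 held both, at 105 CPM of Xist and 149 CPM of 4 Y-linked genes. At 24 h KKO replicate 1 also held both. The labels do not say whether libraries came from separate animals or cultures, so p-values measure the spread between these libraries, which may in part be technical. In such bulk samples, fewer expressing cells and less RNA per cell cannot be told apart.

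The genes lie on 7 chromosomes. In mouse build mm10 (GRCm38, GENCODE M21 annotation), Cad spans chromosome 5, 31054780 to 31078479, with 44 exons in the principal annotated transcript. Umps (chromosome 16, 33954782 to 33967038) and Gart (chromosome 16, 91621186 to 91646952) share a chromosome but lie far apart. Ppat (chromosome 5, 76913249 to 76951578, minus strand) and Paics (chromosome 5, 76951307 to 76967509, plus strand) stand head to head, with their 5′ ends overlapping by 272 bases. The others are Dhodh on chromosome 8 (109591343 to 109608673), Ctps on chromosome 4 (120539868 to 120570276), Pfas on chromosome 11 (68985697 to 69008460), Atic on chromosome 1 (71557150 to 71579631) and Gmps on chromosome 3 (63976106 to 64022579). Umps, Ppat and Gart each overlap an annotated antisense gene, and Pfas overlaps 2 small RNA genes. Whether the counting used strand is not given in the sources used here, so reads of these overlaps may be shared. Umps, Ppat, Pfas, Paics and Gmps carried part counts in 11 or 12 of 12 libraries, which RSEM gives where reads could belong to more than 1 gene, and the other 5 genes carried whole counts only.

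Promoter sequence is shown for 4 members that behave differently below. Cad changed most with time. Ppat and Paics, whose 5′ ends overlap, parted at 48 h. Atic holds the same motif as Paics. The windows come from RefSeq (GRCm38.p6), each from 250 bases before to 50 after the start site, written 5′ to 3′ on the gene's own strand. They are chr5:31054530-31054829 (plus) for Cad, chr5:76951529-76951828 (minus) for Ppat, chr5:76951052-76951351 (plus) for Paics and chr1:71556906-71557205 (plus) for Atic. The windows of Ppat and Paics share no base, and the stretch between them was neither shown nor searched. Capitals mark CACGTG, the E-box that MYC with MAX is known to bind, and TGACNNNGC, the core of the antioxidant response element bound by Nrf2.
Cad: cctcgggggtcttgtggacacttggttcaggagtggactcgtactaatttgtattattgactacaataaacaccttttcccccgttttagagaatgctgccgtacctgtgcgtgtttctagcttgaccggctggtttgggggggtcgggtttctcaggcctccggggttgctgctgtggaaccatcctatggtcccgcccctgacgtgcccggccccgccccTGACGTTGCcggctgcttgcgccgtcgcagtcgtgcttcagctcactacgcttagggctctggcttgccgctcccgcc
Ppat: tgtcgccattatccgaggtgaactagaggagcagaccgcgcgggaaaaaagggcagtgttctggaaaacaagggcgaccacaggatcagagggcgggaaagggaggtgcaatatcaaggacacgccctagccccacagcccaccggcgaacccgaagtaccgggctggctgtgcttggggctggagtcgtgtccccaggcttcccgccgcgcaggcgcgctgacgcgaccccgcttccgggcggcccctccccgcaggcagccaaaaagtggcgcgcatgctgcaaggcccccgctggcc
Paics: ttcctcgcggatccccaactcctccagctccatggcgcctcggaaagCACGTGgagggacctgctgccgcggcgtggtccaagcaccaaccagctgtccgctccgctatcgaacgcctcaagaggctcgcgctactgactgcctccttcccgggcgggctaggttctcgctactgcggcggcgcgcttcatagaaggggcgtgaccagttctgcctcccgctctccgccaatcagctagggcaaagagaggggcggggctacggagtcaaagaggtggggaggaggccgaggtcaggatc
Atic: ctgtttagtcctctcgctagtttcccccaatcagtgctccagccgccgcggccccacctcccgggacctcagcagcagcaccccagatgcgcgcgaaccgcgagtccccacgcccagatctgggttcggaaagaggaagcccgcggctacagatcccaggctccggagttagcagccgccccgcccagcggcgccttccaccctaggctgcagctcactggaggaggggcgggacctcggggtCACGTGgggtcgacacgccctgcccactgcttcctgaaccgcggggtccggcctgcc
Windows were found for 8 of the 10 members, all but Dhodh and Pfas. CACGTG stood in 2 of the 8, at -203 in Paics and at -7 in Atic (first base, counted from the start site), and in 7.15% of all 32851 promoter windows. TGACNNNGC stood in 1 of the 8, at -28 in Cad, and in 12.4% of all windows. TGATGNAA, the core of the element read by ATF4, stood in 0 of the 8 and in 3.97% of all windows. CCAAT stood in 3 of the 8 (Gart at -33, Paics at -23, Atic at -224) and in 37.4% of all windows. Both strands were searched. A match describes letters only, and none of these data measure binding.

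To set genes against each other, CPM was divided by the length in kilobases of 1 annotated transcript, the longest of those marked as principal. In WT at 24 h the level ran from Paics at 168 ± 8.14 CPM per kb, through Gart (151 ± 3.81), Atic (133 ± 3.46), Cad (106 ± 10.7), Umps (76.3 ± 2.54), Ctps (71.7 ± 0.682), Ppat (64.0 ± 2.77) and Pfas (53.2 ± 3.3), to Dhodh (23.8 ± 1.28) and Gmps (22.3 ± 1.25; all SD, n = 3). Only Dhodh and Gmps overlapped as neighbours in that order. KKO at 24 h gave the same order, with overlap of Paics and Gart, of Umps and Ctps, and of Dhodh and Gmps. By 48 h the middle of the order had closed up. In WT, Cad (44.4 ± 9.8), Ctps (43.3 ± 2.32), Ppat (41.1 ± 2.24) and Umps (39.0 ± 2.02 CPM per kb, SD, n = 3) each overlapped the next, and Pfas, Gmps and Dhodh followed without overlap. In KKO at 48 h, Paics stayed on top at 127 ± 4.21 CPM per kb, Atic (77.4 ± 9.72) and Gart (75.2 ± 15.2) overlapped below it, and Gmps, eighth in the order, overlapped Pfas (19.0 ± 3.78, SD, n = 3). Dhodh was lowest in both genotypes at 48 h, at 15.4 ± 1.45 CPM per kb in WT and 14.3 ± 1.16 in KKO (SD, n = 3). Transcript choice sets the scale of each gene, so the order holds for these annotated lengths.

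**Figure D1:**
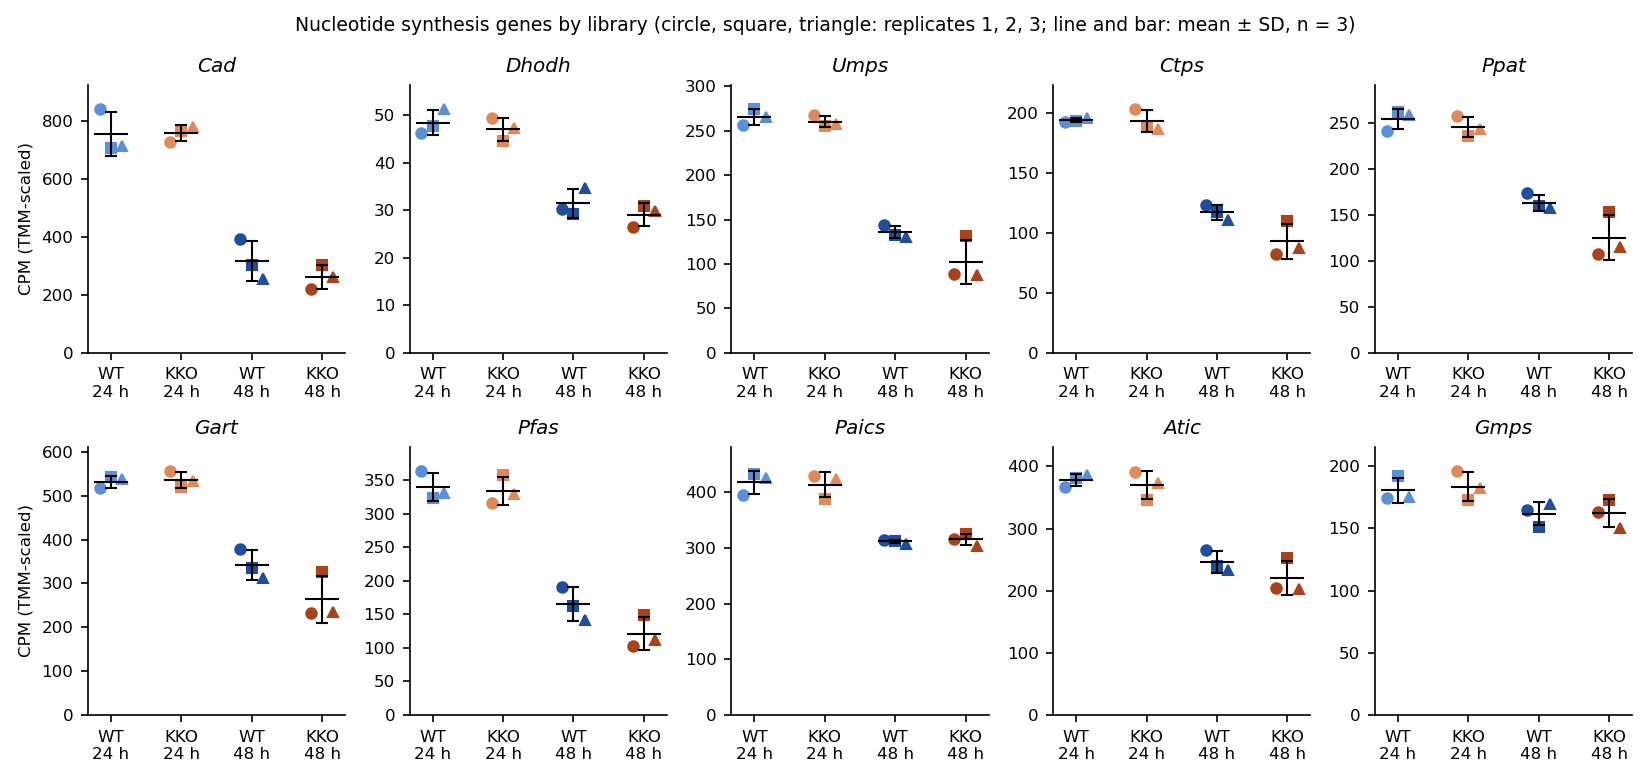
Level of each of the 10 genes in CPM (vertical axes, from 0) in the 4 groups of genotype and time (horizontal axes); each point is 1 library, the line is the mean and the bar is the SD over 3 libraries. All genes but Gmps stood clearly lower at 48 h than at 24 h, the genotypes overlapped at 24 h, and at 48 h KKO replicate 2 (square) lay near WT for most genes.

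The first question is how the routes moved between 24 h and 48 h of stimulation. They fell in both genotypes: in WT 9 of 10 members were lower at 48 h, with Gmps short of the threshold, and in KKO all 10 were. Over all tested genes 29.7% were lower in WT and 33.4% in KKO at an adjusted p under 0.05 (edgeR quasi-likelihood test, Benjamini-Hochberg over all tested genes). The median log2 fold change over the members was -0.64 in WT and -1.0 in KKO, against 0 over all tested genes in both. All 48 h libraries lay below all 24 h libraries for 10 of 10 members in WT and 9 of 10 in KKO, and the same held for 34% and 34.7% of all tested genes.

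Of the pyrimidine genes, Cad had the largest fall and Dhodh the smallest in both genotypes. Cad read 841, 705 and 714 CPM in the 3 WT libraries at 24 h and 392, 304 and 254 CPM at 48 h. In KKO it read 727, 765 and 780 CPM, then 219, 303 and 260 CPM. No 48 h library came near a 24 h library, although WT replicate 1 was the highest of its group at both times. Cad was thus 2.38-fold lower in WT (log2 fold change -1.25 ± 0.15 SE, adjusted p = 1.61e-05) and 2.91-fold lower in KKO (-1.54 ± 0.15 SE, adjusted p = 1.97e-06). Umps, which closes the route to UMP, read 257, 275 and 266 CPM in WT at 24 h and 144, 133 and 131 CPM at 48 h. In KKO Umps went from 267, 256 and 257 CPM to 88.8, 131 and 88.1 CPM, so that replicates 1 and 3 were lower than any other library and replicate 2 stood among WT. The folds were 1.96 lower in WT (adjusted p = 1.15e-05) and 2.54 lower in KKO (adjusted p = 4.47e-07). Ctps read 192, 194 and 196 CPM in WT at 24 h, a tight group, and 123, 118 and 111 CPM at 48 h. Its KKO libraries went from 203, 189 and 187 CPM to 82.5, 109.7 and 86.9 CPM, again with replicate 2 the highest, and the log2 fold changes were -0.73 in WT (adjusted p = 4.48e-06) and -1.05 in KKO (adjusted p = 9.58e-08). Dhodh, the mitochondrial step, was the lowest of the 4 in level, at 46.3, 47.8 and 51.4 CPM in WT at 24 h and 30.4, 29.2 and 34.8 CPM at 48 h. In KKO Dhodh read 49.4, 44.6 and 47.3 CPM, then 26.5, 31.0 and 29.9 CPM, and its log2 fold changes were alike, -0.62 in WT (adjusted p = 9.34e-06) and -0.70 in KKO (adjusted p = 2.38e-06). The paralog Ctps2, which also makes CTP, went the other way: it rose from 20.6 ± 1.41 to 25.8 ± 2.99 CPM in WT (SD, n = 3; log2 fold change 0.33, adjusted p = 0.0145) and from 19.8 ± 1.26 to 29.3 ± 3.96 CPM in KKO (SD, n = 3; 0.57, adjusted p = 0.000223).

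Among purine genes Pfas had the largest fall in both genotypes. Pfas, the glutamine-using synthase in the middle of the route, read 363, 324 and 331 CPM in WT at 24 h and 191, 163 and 142 CPM at 48 h. In KKO Pfas went from 316, 357 and 329 CPM to 103, 149 and 112 CPM. Its libraries of the times lay far apart, 2.05-fold lower in WT (adjusted p = 1.63e-05) and 2.76-fold lower in KKO (adjusted p = 5.87e-07). Ppat, the committing step, read 242, 263 and 259 CPM in WT at 24 h, then 174, 160 and 157 CPM. In KKO Ppat went from 258, 236 and 244 CPM to 108, 154 and 115 CPM, with log2 fold changes of -0.64 in WT (adjusted p = 8.88e-05) and -0.97 in KKO (adjusted p = 1.3e-06). Gart, which carries several steps on 1 protein, read 517, 542 and 538 CPM in WT at 24 h, then 379, 335 and 312 CPM. In KKO Gart went from 556, 519 and 533 CPM to 232, 326 and 235 CPM, a fall by 0.64 in WT (adjusted p = 0.000203) and by 1.02 in KKO (adjusted p = 2.17e-06) on the log2 scale. Both genes show the KKO pattern of Umps, with replicates 1 and 3 low at 48 h and replicate 2 close to WT.

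The remaining genes are Paics and Atic on the way to IMP, and Gmps after it. Atic, which closes the second ring, read 368, 382 and 387 CPM in WT at 24 h and 266, 240 and 233 CPM at 48 h. In KKO Atic went from 391, 347 and 373 CPM to 205, 252 and 204 CPM, with log2 fold changes of -0.62 in WT (adjusted p = 1.36e-05) and -0.75 in KKO (adjusted p = 1.41e-06). Paics read 395, 432 and 427 CPM in WT at 24 h and 315, 313 and 308 CPM at 48 h, and in KKO 429, 388 and 425 CPM, then 317, 325 and 304 CPM. Its fall was small and even, -0.42 ± 0.06 in WT (adjusted p = 2.05e-05) and -0.39 ± 0.06 in KKO (SE, adjusted p = 2.84e-05). Gmps, the step to GMP, read 174, 192 and 175 CPM in WT at 24 h and 165, 151 and 170 CPM at 48 h. In KKO Gmps read 196, 173 and 183 CPM, then 164, 173 and 151 CPM, so that the times overlapped in KKO and nearly met in WT. Its log2 fold change was -0.16 ± 0.07 in WT (adjusted p = 0.066) and -0.18 ± 0.07 in KKO (SE, adjusted p = 0.0351). In KKO Gmps failed to pass in 8 of 22 alternatives, among them the replicate number as a block (adjusted p = 0.0599). Its adjusted p there reached 0.423, and its log2 fold change ran from -0.24 to -0.08. In WT it passed in 2 of 22. Over all alternatives Gmps was the only member whose call with time varied. The other 9 passed in both genotypes under all 22 alternatives.

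**Figure D2:**
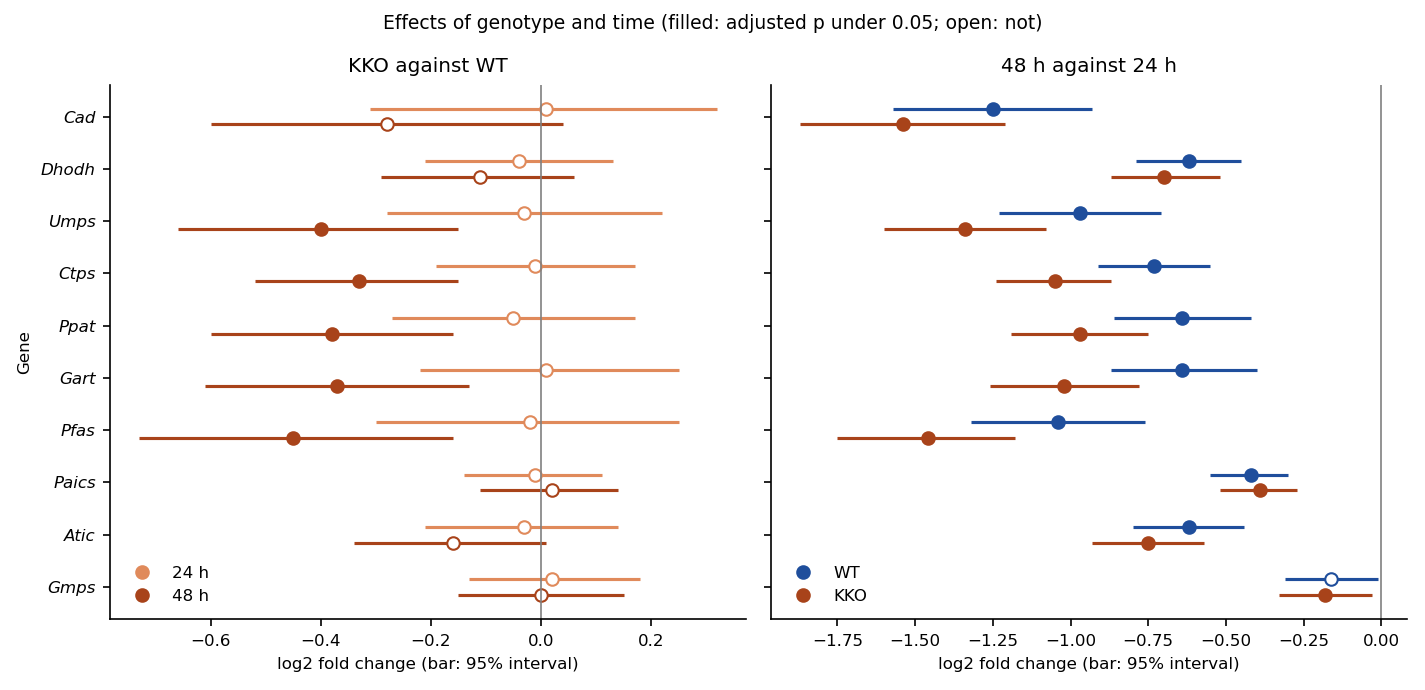
Log2 fold change (horizontal axes) of each gene (vertical axis) for KKO against WT at each time (left) and for 48 h against 24 h in each genotype (right), with 95% intervals as bars and filled points at an adjusted p under 0.05. At 24 h every interval crosses 0, at 48 h Umps, Ctps, Ppat, Gart and Pfas lie left of it, and with time Cad, Pfas and Umps lie farthest left.

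The next question is what loss of Keap1 changed. At 24 h no member was called: 0 of 10 passed by edgeR, by DESeq2 or by limma-voom, and 0 had an unadjusted p under 0.05, where 2.33% of all tested genes were called in either direction. The log2 fold changes ran from -0.05 (Ppat) to 0.02 (Gmps), and the smallest adjusted p was 0.965. These signs are not settled: over the alternatives Cad ran from -0.04 to 0.10 and Pfas from -0.08 to 0.05. Libraries of the genotypes overlapped for all 10. The 95% intervals, taken over the members, reached from -0.31 to 0.32, both bounds set by Cad, which had the widest spread between WT libraries. For Paics the interval was narrower, -0.14 to 0.11. The 10 genes summed to 3344 to 3396 CPM per WT library and 3274 to 3394 CPM per KKO library.

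At 48 h 5 of 10 members were lower in KKO: Umps and Ctps of the pyrimidine route, and Ppat, Gart and Pfas of the purine route. None was higher. Over all tested genes 11.9% were lower and 12.4% were higher. The median log2 fold change of the members was -0.31, and the median over all tested genes was 0. Pfas had the largest difference, 121 ± 24.1 CPM in KKO against 165 ± 24.9 CPM in WT (SD, n = 3), a log2 difference of -0.45 ± 0.13 (SE, adjusted p = 0.0263). Umps stood at 103 ± 24.7 against 136 ± 7.06 CPM (SD, n = 3), or -0.40 ± 0.12 as log2 (SE, adjusted p = 0.0272). Ppat stood at 126 ± 24.5 against 164 ± 8.91 CPM (SD, n = 3; -0.38 ± 0.10, adjusted p = 0.0165), and Gart at 264 ± 53.5 against 342 ± 33.8 CPM (SD, n = 3; -0.37 ± 0.11, adjusted p = 0.0272). Ctps stood at 93.0 ± 14.6 against 117 ± 6.28 CPM (SD, n = 3; -0.33 ± 0.09, adjusted p = 0.0139). These are falls of 20.5% to 26.6%. All KKO libraries lay below all WT libraries for Ctps and Ppat alone, 2 of 10 members, as for 16.2% of all tested genes. The gap was narrow for both, 110 CPM for the highest KKO library of Ctps against 111 CPM for the lowest WT library, and 154 against 157 CPM for Ppat.

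The other 5 members did not pass at 48 h. Cad read 261 ± 41.8 CPM in KKO and 317 ± 69.9 CPM in WT (SD, n = 3), a log2 fold change of -0.28 with a 95% interval of -0.60 to 0.04 (adjusted p = 0.181). Atic had -0.16, from -0.34 to 0.01 (adjusted p = 0.159), and Dhodh -0.11, from -0.29 to 0.06 (adjusted p = 0.337). Paics was level at 315 ± 10.5 CPM in KKO and 312 ± 3.39 CPM in WT (SD, n = 3), with an interval of -0.11 to 0.14. Gmps was level too, at 162 ± 11.1 and 162 ± 9.44 CPM (SD, n = 3), with an interval of -0.15 to 0.15. The interval of Paics lies above the value of each of the 5 members that fell. Of the members that take the amide nitrogen of glutamine (Cad, Ctps, Ppat, Pfas, Gmps) 3 of 5 were lower, and of the others (Dhodh, Umps, Gart, Paics, Atic) 2 of 5, a difference of 1 gene.

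**Figure D3:**
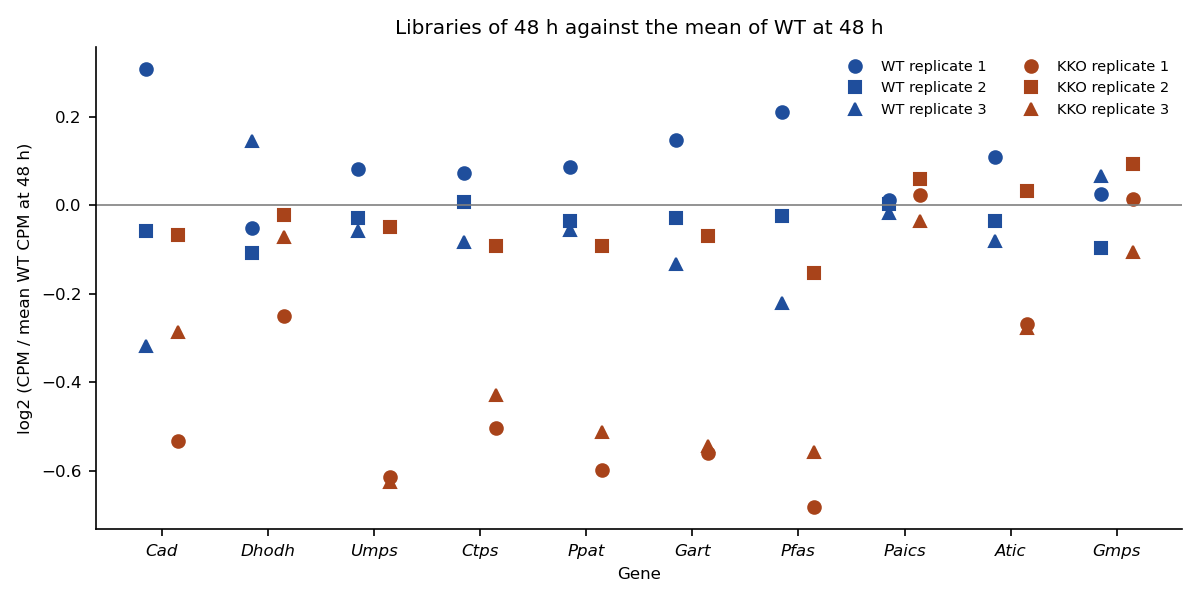
Each 48 h library as log2 of its CPM over the mean WT CPM at 48 h (vertical axis) for the 10 genes (horizontal axis); blue is WT, brown is KKO, and the shape gives the replicate number. KKO replicates 1 and 3 each lie below all WT libraries for 8 of 10 genes, while the median of KKO replicate 2 is -0.06. The same count was not made over all tested genes.

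The KKO libraries at 48 h did not move as one. Relative to the WT mean, the median over the 10 genes was -0.52 in KKO replicate 1, -0.36 in replicate 3 and -0.06 in replicate 2, on the log2 scale. Replicates 1 and 3 were below all WT libraries for 8 of 10 members each, and replicate 2 for 2 of 10. The same count was not made over all tested genes, so whether this split is particular to the members was not read. Summed CPM of the 10 genes was 1545 and 1585 in replicates 1 and 3 and 1952 in replicate 2, while WT ran from 1852 to 2179. Replicate 2 is the KKO library with Xist and few Y-linked transcripts, and replicates 1 and 3 are those with Y-linked transcripts. In WT the library with Y-linked transcripts, replicate 3, had the lowest sum of its group. With the male share of each library as a covariate, the same number of members, 5, was called. That term takes the same slope at both times, so it cannot fully take up a difference present at 48 h alone. At 24 h the sums were 3344, 3394 and 3358 CPM in libraries with Y-linked transcripts and 3396, 3356 and 3274 CPM in the others. More KKO than WT libraries held Y-linked transcripts at 48 h, so sex and genotype were partly confounded, and the part of sex was not tested. When the 2 libraries with Xist as well as Y-linked transcripts (KKO replicate 1 of 24 h and replicate 3 of 48 h) were left out, 0 were called. The count also fell to 0 without WT replicate 1, WT replicate 2, KKO replicate 1 or KKO replicate 3 of 48 h, or with only the 6 libraries of 48 h in the fit, to 2 (Ctps and Ppat) with no low-count filter, and it rose to 6 without WT replicate 3 or KKO replicate 2. The share of all tested genes called lower moved as well, from 11.9% to between 4.75% and 5.88% in the 4 fits that lost 1 library and all member calls, to 5.13% with the 6 libraries, 4.84% without both mixed libraries and 7.22% with no filter, and to 12.9% and 21.1% in the fits that dropped WT replicate 3 and KKO replicate 2. Through all 22 alternatives the 5 genes stayed lower in KKO, with log2 fold changes between -0.63 and -0.25. B cell and CD8 marker sums were higher in KKO at 48 h, as given above, and their part in these differences was not tested.

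Whether the effect of genotype differed between the times was tested as an interaction. It was called for 0 of 10 members, where 4.18% of all tested genes were called, both at an adjusted p under 0.05. The unadjusted p by edgeR was under 0.05 for 5 members (Umps, Ctps, Ppat, Gart and Pfas). The share of all tested genes at that unadjusted cut was not read, so this count has no background beside it. DESeq2 and limma-voom also called 0. The effect at 48 h minus that at 24 h was -0.42 for Pfas (adjusted p = 0.191), -0.38 for Gart (0.168), -0.37 for Umps (0.207), -0.33 for Ppat (0.19) and -0.32 for Ctps (0.133), all as log2 with adjusted p by edgeR. With replicate number as a block Pfas passed (-0.43, adjusted p = 0.0492), as it did with the male share as a covariate (-0.42, adjusted p = 0.0375). Without KKO replicate 2 of 48 h, 6 members passed, the 5 named and Atic, and all of them lower; in that fit 23.8% of all tested genes were called, 14.4% lower. With the block 7.06% of all tested genes were called, and with the male share 10.8%. In KKO the block rests on numbers whose meaning is unsure: replicate 1 held both kinds of sex-linked transcripts at 24 h but Y-linked ones alone at 48 h, and replicate 3 the reverse. The genotype effect at 48 h was thus past the threshold for 5 genes, and its difference from 24 h was not.

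Ppat and Paics were set against each other after their values had been seen, since their 5′ ends overlap and they read apart at 48 h. The log2 ratio of Ppat to Paics CPM was -0.71, -0.72 and -0.72 in WT at 24 h and -0.73, -0.72 and -0.80 in KKO at 24 h. At 48 h it was -0.86, -0.97 and -0.97 in WT and -1.55, -1.08 and -1.41 in KKO. The 24 h groups touch, and all 48 h libraries lie lower, with every KKO library below every WT library. At 48 h the ratio was lower in KKO by 0.41 (exact permutation p = 0.1, 2-sided), and at 24 h by 0.04 (exact permutation p = 0.2). Over time it fell by 0.22 in WT and by 0.60 in KKO (exact permutation p = 0.1 each). With 3 libraries a group, 0.1 is the smallest p that this test can give, so none of the 4 comparisons could reach 0.05, and no adjustment was made. The 2 genes carry part counts in 11 of 12 libraries, so some of their reads may have been shared in counting.

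**Figure D4:**
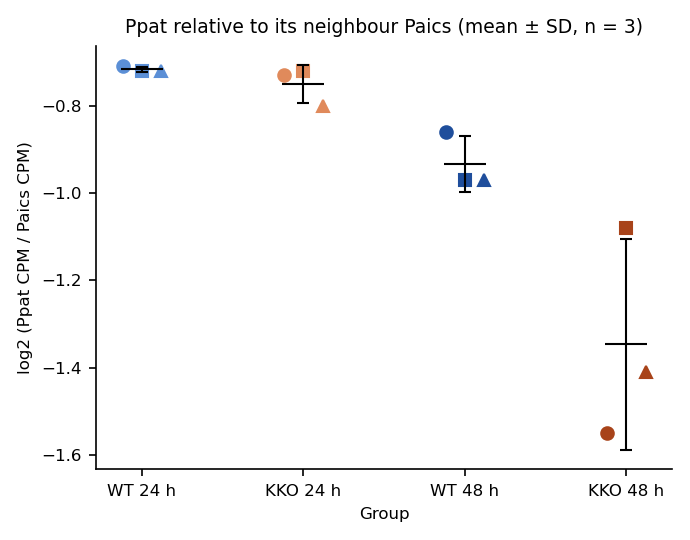
Log2 ratio of Ppat to Paics CPM (vertical axis) in each library, by group of genotype and time (horizontal axis), with mean and SD over 3 libraries. The ratio lies between -0.71 and -0.80 in all 24 h libraries, and reaches -1.55 in KKO at 48 h, where replicate 2 stays at -1.08.

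Over the 12 libraries, deviations of log2 CPM from the group mean correlated at a median r of 0.564 over the 45 pairs of members, from -0.13 to 0.971, and 40 of 45 were above 0. Over all pairs of the 13196 tested genes the median was 0.01, and 50% were above 0. That background set no floor on level, and pairs of genes at the members' level were not read apart. The closest pairs were Umps with Ppat (0.971), Ppat with Gart (0.966), Umps with Gart (0.964) and Ctps with Gart (0.963). Lowest were Cad with Dhodh (-0.13) and Cad with Gmps (-0.07). These libraries share the KKO 48 h spread described above, and the values are a description. Across all 12 libraries, where the times lie apart, each member's correlation with the mean of the other 9 ran from 0.787 (Gmps) and 0.95 (Paics) to 0.993 (Umps) and 0.997 (Atic).

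Outside the members, the tested genes with at least 5 CPM whose profile over the 12 libraries was most like the members' mean were Cul1 (Pearson r = 0.999), a cullin scaffold of ubiquitin ligases, and Nhp2l1, Klhdc4, Heatr3, Mettl16 and Tomm40 (0.998 each). Nhp2l1 encodes a component of the spliceosome and of box C/D small nucleolar particles, and Tomm40 the pore of the outer mitochondrial membrane. Heatr3, for example, averaged 165 and 164 CPM at 24 h and 86.3 and 69.5 CPM at 48 h, in WT and KKO. Of the 9536 candidate genes, 1581 (16.6%) reached r of at least 0.95, so the profile was a common one.

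Other genes of nucleotide metabolism were read from lists of textbook steps. Of 58 such genes 55 were tested. At 24 h 0 were called between genotypes by edgeR, with an unadjusted p under 0.05 for 4, 1 call by DESeq2 and 0 by limma-voom. At 48 h 6 of 55 were higher and 13 of 55 lower in KKO, beside 12.4% and 11.9% of all tested genes, with a median log2 fold change of -0.07. Fits that left out single libraries were read for the members alone. How far these 48 h calls, and those of the lists below, rest on single libraries was therefore not read. Among further steps of the de novo routes, Adsl, the purine lyase between Paics and Atic, was lower in KKO at 48 h, at 167 ± 24.6 against 203 ± 13.6 CPM (SD, n = 3; -0.28, adjusted p = 0.0287). Impdh1, an IMP dehydrogenase on the way to GMP, was higher at 142 ± 12.4 against 116 ± 10.5 CPM (SD, n = 3; 0.28, adjusted p = 0.0195), and the more abundant Impdh2 was level at 409 ± 12.3 and 404 ± 12.7 CPM (SD, n = 3; 0.02, adjusted p = 0.855). Adssl1, an adenylosuccinate synthase, was higher at a low level, 6.04 ± 1.70 against 3.17 ± 0.680 CPM (SD, n = 3; 0.93, adjusted p = 0.0143). Its sister Adss had -0.08 (adjusted p = 0.371), and Ctps2 had 0.19 (adjusted p = 0.21).

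Suppliers of the routes moved in part with the members at 48 h. Of 4 PRPP supply genes, the synthetase Prps2 was lower in KKO (-0.23, adjusted p = 0.0111), and 3 did not pass. Of 6 genes of one-carbon supply, cytosolic Shmt1 (-0.50, adjusted p = 0.0254), cytosolic Mthfd1 (-0.27, adjusted p = 0.0493) and mitochondrial Mthfd2 (-0.21, adjusted p = 0.0473) were lower, while mitochondrial Mthfd1l was higher (0.18, adjusted p = 0.0277). Of 8 genes of deoxynucleotide synthesis, 4 were lower, among them Tyms (-0.38, adjusted p = 0.0185), which makes dTMP, Dtymk (-0.26, adjusted p = 0.0195) and the ribonucleotide reductase subunit Rrm1 (-0.23, adjusted p = 0.0388). Of 6 nucleotide kinases 0 passed by edgeR, DESeq2 or limma-voom, and 0 had an unadjusted p under 0.05. KKO replicate 2 was again the highest KKO library for Shmt1, at 82.4 CPM against 52.3 and 52.9 CPM, with WT at 95.7, 87.5 and 81.9 CPM. That replicate also lay within the WT range for Mthfd1, Tyms and Rrm1. For Prps2, Mthfd2 and Dtymk all KKO libraries lay below all WT libraries.

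Genes that recycle, break down or carry nucleosides showed larger single changes. Of 12 salvage genes only Pnp, the purine nucleoside phosphorylase, was called at 48 h, and it was lower (-0.46, adjusted p = 0.000463), at 51.2, 58.9 and 49.0 CPM in KKO against 73.7, 73.3 and 71.5 CPM in WT. Hprt, which salvages hypoxanthine and guanine, had 0.09 (adjusted p = 0.396). Of 12 breakdown and deamination genes 9 were tested, and Upp1 (1.1, adjusted p = 0.0274), Ampd3 (0.55, adjusted p = 0.0274) and Nt5c (0.19, adjusted p = 0.0475) were higher, while Xdh, the xanthine dehydrogenase that makes uric acid, was lower (-0.83, adjusted p = 0.00481). Upp1, the uridine phosphorylase, was nearly absent at 24 h, at 0.0714, 0 and 0.0357 CPM in WT, and by 48 h reached 2.12, 3.14 and 3.84 CPM there and 8.998, 4.58 and 5.96 CPM in KKO. Of 4 nucleoside transporters the equilibrative carriers Slc29a1 (-0.53, adjusted p = 0.00198) and Slc29a3 (-0.53, adjusted p = 0.00086) were lower.

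With time, 28 of the 55 were lower and 11 higher in WT, where 29.7% of all tested genes were lower and 31% higher. In KKO 32 were lower and 14 higher, where 33.4% of all tested genes were lower and 34.4% higher. The medians were -0.20 and -0.39, against -0.64 and -1.0 for the members. Falls of the members' size came from Shmt1 (-1.22 in WT and -1.66 in KKO), Mthfd1 (-0.93 and -1.16), Dctd (-1.13 and -1.36), Slc29a2 (-1.45 and -1.84) and Slc29a1 (-1.05 and -1.46). Rises came from Upp1 (6.28 and 7.18), Adssl1 (3.36 and 4.73), Xdh (2.97 and 1.60) and Samhd1, a deoxynucleotide hydrolase (1.12 and 1.39), all called in both genotypes as log2 fold changes. The fitted folds of Upp1 and Adssl1 start from levels under 0.4 CPM at 24 h and depend on the prior count of the fit. Hprt (0.29 and 0.39) and the thymidine kinase gene Tk1 (0.50 and 0.31) also rose in both. Both comparisons within a genotype share libraries with those between genotypes.

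Regulators known to act on these routes were read beside them. Myc, a factor known to raise nucleotide synthesis genes, was lower in KKO at 48 h, at 493 ± 71.4 against 671 ± 35.0 CPM (SD, n = 3; -0.45, adjusted p = 0.00232), as was its partner Max, at 119 ± 11 against 161 ± 8.13 CPM (SD, n = 3; -0.44, adjusted p = 0.000601). Their libraries did not overlap between genotypes. At 24 h Myc was level at 679 ± 19.4 and 679 ± 38.0 CPM (SD, n = 3; 0.00, adjusted p = 1). Max at 24 h stood at 195 ± 6.87 CPM in KKO and 218 ± 8.9 CPM in WT (SD, n = 3; -0.16, adjusted p = 0.354). With time Myc had -0.02 in WT (adjusted p = 0.871) and -0.46 in KKO (adjusted p = 0.000196). Max fell with time in both genotypes, by -0.44 in WT (adjusted p = 6.04e-05) and -0.72 in KKO (adjusted p = 3.83e-07) as log2 fold changes. Atf4 rose with time in WT (0.50, adjusted p = 1.24e-05) and in KKO (0.37, adjusted p = 0.000146), and between genotypes at 48 h it had -0.10 (adjusted p = 0.289). Of 9 proliferation genes, Mcm2 to Mcm7 and Pcna, 7 in all, were lower in KKO at 48 h, beside 11.9% of all tested genes. These calls were not read with single libraries left out. At 24 h edgeR, DESeq2 and limma-voom called 0, with an unadjusted p under 0.05 for 2 by edgeR. The same 7 fell with time in both genotypes, where 29.7% of all tested genes were lower in WT and 33.4% in KKO. Mki67 and Top2a rose with time in WT (0.59, adjusted p = 0.00573, and 0.24, adjusted p = 0.00981) and had -0.11 (adjusted p = 0.553) and -0.15 (adjusted p = 0.0887) in KKO. The sum of the 9 in WT was 5710 ± 65.7 CPM at 24 h and 4250 ± 316 CPM at 48 h, and that in KKO 5740 ± 161 and 3600 ± 353 CPM (SD, n = 3). Their part in the members' levels was not tested.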

How the data were processed

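RNA of 12 libraries was compared, 3 for each genotype and time. FastQC and RSEM, with mouse build mm10, are the tools and build that the submitters' processing notes name; versions are not given in the sources used here, and a human reference is named in the series design text instead. The authors deposited RSEM expected counts per gene, not normalised, in which 10.8 to 12.7% of values in a library were not whole. Another 6 columns, which no sample label describes, were not used, and 1 row named no gene.

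Counts were rounded and fitted with edgeR 4.0.16 in R 4.3.3 (filterByExpr, TMM, robust quasi-likelihood, 12 libraries, 4 group means, 8 residual degrees of freedom). All p-values are 2-sided and adjusted by Benjamini-Hochberg over 13196 genes, and a gene was called under 0.05. CPM used TMM-scaled totals, and correlations used log2 CPM with a prior count of 2. Replicates differed by more than counting noise (chi-square over degrees of freedom 5.64 to 22.8). Intervals cover the spread between libraries.

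The members and gene lists were chosen with earlier results of these data known. Named genes are the members, Keap1, further steps and paralogs of the routes, up to 4 called genes with the largest change from each other list and comparison, and the 6 genes most like the members' mean; regulators, proliferation genes, Hprt, Tk1 and the other genes named without a call were added after their values were seen. Not every gene that the rule names is reported here.

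Deviations from group means of same-numbered WT libraries correlated across time at 0.126, 0.103 and 0.343. In KKO the values were 0.0287, 0.0852 and 0.0408, and no label says what a number stands for. Within a genotype the block took the numbers to pair libraries across time. Libraries of unlike number were not set against each other, so these values cannot settle whether the numbers pair libraries. The main fit used no block. Between genotypes the block joined same-numbered WT and KKO libraries. Their deviations correlated at -0.317, -0.00299 and 0.224 at 24 h and at -0.249, 0.106 and 0.135 at 48 h. No label pairs the genotypes, so that block has no stated basis. The alternatives used other scalings (RLE, upper quartile), tools (DESeq2 1.42.0, limma-voom of limma 3.58.1) and low-count filters, the 6 libraries of a comparison alone, a replicate block, or 1 library fewer. A further pair was chosen after seeing the data: a term for the male share, read from Y-linked transcripts, and a fit that drops the 2 libraries with Xist as well.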

Additional observations from a re-analysis of the deposited data

Results flagged for a closer look

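The effect of Keap1 loss differed between 24 h and 48 h, by the interaction test of edgeR, for 3 of the 55 other nucleotide genes tested, where 4.18% of all tested genes were called. Xdh, the xanthine dehydrogenase, had a log2 fold change of 0.54 at 24 h (adjusted p = 0.312) and -0.83 at 48 h (adjusted p = 0.00481), a difference of -1.37 (adjusted p = 0.0172). It read 2.79, 2.25 and 2.54 CPM in WT and 3.26, 3.78 and 3.96 CPM in KKO at 24 h, then 21.4, 18.6 and 19.1 CPM in WT and 8.41, 15.5 and 9.49 CPM in KKO, so that the order of the genotypes turned without overlap at either time. Pnp, the purine nucleoside phosphorylase, had -0.03 and -0.46, a difference of -0.42 (adjusted p = 0.0253). Slc29a3, a nucleoside carrier of lysosomes, had -0.01 and -0.53, a difference of -0.52 (adjusted p = 0.0275).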

How the results depend on the processing

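Counts of members called were recomputed under 22 alternatives (21 for the interaction). At 24 h the count stayed at 0 in all of them, and 22 of 220 member values, none of them called, turned sign. At 48 h it was 5 with RLE or upper-quartile scaling, DESeq2, limma-voom, the stricter filter, the replicate block and the male share, 2 with no low-count filter, 0 with only the 6 libraries of 48 h, 0 without the 2 libraries that held both sex-linked kinds, and 0 to 6 when single libraries were left out. The interaction count of 0 became 1 with the replicate block and 1 with the male share, and ran from 0 to 6 over left-out libraries, while the share of all tested genes went from 4.18% to 7.06%, 10.8% and 1.06 to 23.8% in the same fits. With time the count ran from 9 to 10 in WT and in KKO. The block changed no other call but that of Gmps with time in KKO. No member was called higher anywhere. Paics at 48 h, 0.02 in KKO against WT, became 0.00 with no filter (a change of sign before rounding) and -0.02 to 0.04 with single libraries left out (-0.02 where KKO replicate 2 was dropped and 0.04 for KKO replicate 3). Gmps at 48 h, also 0.00, became -0.02 with no filter, 0.00 with only 6 libraries, and -0.06 to 0.05 with single libraries left out (-0.05 where WT replicate 2 was dropped, -0.06 for KKO replicate 2 and 0.05 for KKO replicate 3). None of these was called, and the cause of the changes was not tested. With 3 libraries a group, intervals at 24 h allow differences of up to 0.32 on the log2 scale.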
